A study of Mus musculus with 2 samples.

Results

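The data describe the promoters of 35 genes that encode subunits of ATP-dependent chromatin remodelers, out of 22223 protein-coding genes in the mouse annotation. The genes were taken by name and by complex: 16 of SWI/SNF, 2 of ISWI (Smarca5 and Bptf), 4 CHD genes outside NuRD (Chd1, Chd2, Chd7 and Chd8), 11 of NuRD and 2 of the SWR1 type (Srcap and Ep400). The rule that lists the genes uses no read count, but the list was drawn up with earlier results of these data known. Chromatin came from E14 cells, a mouse ES cell line labelled with the background strain C57BL/6 and grown with LIF, with no treatment or genetic change. One library was made with an anti-ZNF322 antibody (sc-102205), used against Zfp322a, a zinc finger protein of ES cells. The other was made with anti-Rabbit IgG (sc-2027) as the control. With 1 library for each antibody there were no replicates, and every test below compares these 2 libraries, not the antibodies in general.

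ATP-dependent remodelers slide, eject or exchange nucleosomes with the energy of ATP. SWI/SNF complexes (BAF and PBAF) are built around the ATPases Smarca4 (Brg1) or Smarca2 (Brm) and open chromatin, and ES cells use a BAF form that holds Smarca4. ISWI enzymes space nucleosomes, Chd1 and its relatives act at active genes, NuRD couples the ATPases Chd3 and Chd4 to the histone deacetylases Hdac1 and Hdac2, and Srcap and Ep400 place the histone variant H2A.Z. SWI/SNF and NuRD genes are known for their roles in ES cell self-renewal and differentiation.

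Reads scored 25 or more for mapping quality were counted from 1000 bp before to 1000 bp after each protein-coding TSS, overlapping windows of a gene being joined. There were 4151151 such reads in the Zfp322a library and 3877802 in the IgG library. The fold per read is the ratio of the reads in the windows, each divided by its library's total, and reads per 1000000 such reads are given as RPM. Its exact 95% interval covers counting error only, because 1 library per antibody shows no spread between experiments. Genes with at least 10 reads in the libraries together were tested with the exact conditional binomial test, two-sided, with Benjamini-Hochberg adjustment over 16547 protein-coding genes.

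The remodeler promoters held 1040 Zfp322a reads and 652 IgG reads, a pooled fold per read of 1.49 (1.35 to 1.65). The pooled fold of all protein-coding genes was 1.36. Of the 35 genes 34 were tested, and Gatad2b was under the minimum with 4 and 3 reads. The fold was at least 2 at 9 of the 34 genes (26.5%), beside 20.6% of all genes tested. The adjusted p was under 0.05 with more Zfp322a reads at 3 genes, Smarce1, Smarcc1 and Rbbp4, against a background of 5.18%. It was under 0.05 with fewer Zfp322a reads at 0 genes, beside 0.0967% of all genes. The unadjusted binomial p was under 0.05 at 13 of the 34 members tested, beside 18.8% of all genes tested. The median fold of the members was 1.37 (range 0.571 to 5.14, quartiles 1.15 and 2.01) and that of all genes 1.34 (quartiles 0.961 and 1.87). By the median the remodeler genes thus lay close to the rest of the promoters. A larger share of them than of all genes had an unadjusted binomial p under 0.05, and that difference was not tested. A binomial p also depends on the number of reads counted. The members had longer windows to count in, a median of 4002 bp beside 2001 bp over all protein-coding genes.

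Most promoters held more Zfp322a than IgG reads, and the scaling therefore sets which fold counts as no difference. Scaled by the reads in the windows of all protein-coding genes instead of by library totals, the median of all genes moved from 1.34 to 1, a shift of 0.43 on the log2 scale. The members' median then was 1.02, 16 members instead of 5 lay below 1, beside 49.8% instead of 26.5% of all genes tested. Smarce1 alone kept an adjusted p under 0.05 (exact binomial test, p = 0.0241), beside 0.586% of all genes. Beyond the windows, the bodies of the member genes held 6210 Zfp322a reads and 5512 IgG reads, a fold of 1.05 (1.01 to 1.09). The members' windows were somewhat richer in G and C, with a median of 55.3% beside 52.3% over the genes tested, and over the deciles of GC content of all genes the median fold ran from 1.22 to 1.4.

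**Figure D1:**
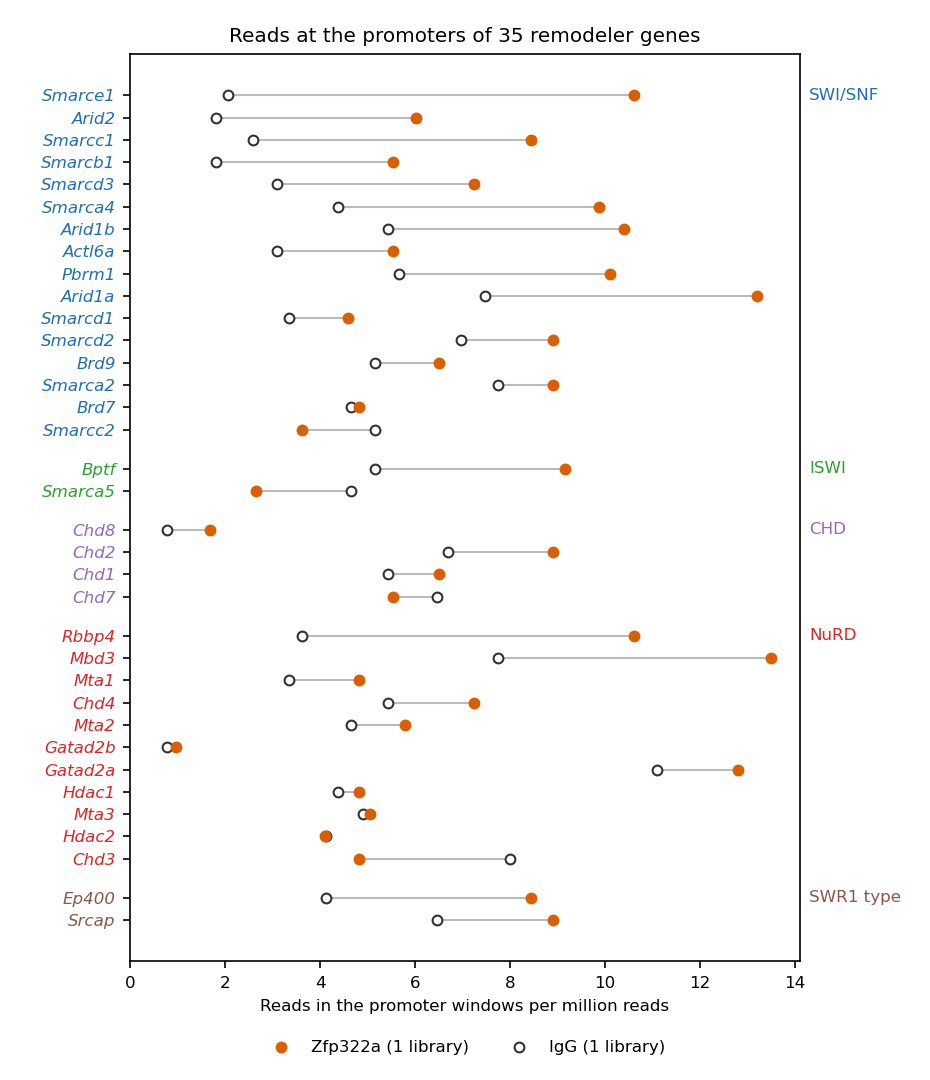
Reads in the promoter windows in RPM (x axis) for the 35 remodeler genes, grouped by complex and ordered by fold, with filled points for the Zfp322a library and open points for the IgG library. The Zfp322a point lies farthest from the IgG point at Smarce1, 10.6 against 2.06 RPM, and lies left of it at Smarcc2, Smarca5, Chd7, Chd3 and, barely, Hdac2.

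Smarce1 (BAF57, an HMG-box subunit found in animal SWI/SNF complexes) had the highest fold of the members. Its single window, chr11:99091331-99093331 of mm9, held 44 Zfp322a reads and 8 IgG reads, or 10.6 and 2.06 RPM. The fold per read was 5.14 (2.39 to 12.6), with an adjusted p of 2.54e-04 in the exact binomial test. Of 16547 genes, 1.02% had a fold as high or higher. The reads did not pile up at the TSS of the coding transcripts (chr11, 99092331, minus strand). They formed a broad stretch of 857 bp, and extended to 300-bp fragments they reached a height of 18 reads 663 bp downstream, where the IgG height was 3. The annotation places this position in an intron, 59 to 92 bp downstream of the starts of 3 non-coding transcripts of the gene. The value therefore depends on the window: from 1000 bp before to 100 bp after the TSS the fold was 2.18 and the adjusted p 0.725 in the same binomial test. Of the Zfp322a reads within 500 bp of the highest point, 18 were forward and 16 reverse, with median positions of 8.50 and 139 bp towards higher coordinates, so the forward reads lay before the reverse reads, as at the ends of fragments. The rest of the gene also held more Zfp322a reads, 49 against 29, a fold of 1.58.

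Sequences of 5 members are shown because the results above and below turn on them: the 3 genes that passed the adjusted test, the gene of the ATPase Smarca4 and the PBAF gene Arid2. They are the intronic stretches under the highest points of Smarce1 and Smarca4, the 200 bases before the TSS of Smarcc1, and the bases under the upstream high points of Rbbp4 and Arid2. They were read from mm9 on the strand of the gene. Capitals mark the letters of promoter motifs found on either strand.
Smarce1, chr11:99091568-99091715, minus strand: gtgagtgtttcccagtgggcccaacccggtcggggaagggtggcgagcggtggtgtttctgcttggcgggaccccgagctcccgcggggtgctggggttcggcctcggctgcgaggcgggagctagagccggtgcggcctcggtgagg
Smarca4, chr9:21420928-21421127, plus strand: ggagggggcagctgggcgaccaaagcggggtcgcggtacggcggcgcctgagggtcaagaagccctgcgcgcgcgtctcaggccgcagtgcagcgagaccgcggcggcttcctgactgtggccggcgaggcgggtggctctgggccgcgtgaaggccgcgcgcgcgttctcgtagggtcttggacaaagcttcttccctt
Smarcc1, chr9:110034341-110034540, plus strand: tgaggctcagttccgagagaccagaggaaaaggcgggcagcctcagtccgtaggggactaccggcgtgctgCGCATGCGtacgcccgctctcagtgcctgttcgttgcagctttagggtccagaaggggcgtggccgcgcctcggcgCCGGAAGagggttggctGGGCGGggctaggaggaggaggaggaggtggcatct
Rbbp4, chr4:129012714-129012913, minus strand: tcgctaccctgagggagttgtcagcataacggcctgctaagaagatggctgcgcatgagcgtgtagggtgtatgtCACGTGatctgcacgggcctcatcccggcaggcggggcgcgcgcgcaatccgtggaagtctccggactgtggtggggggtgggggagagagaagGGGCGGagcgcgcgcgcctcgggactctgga
Arid2, chr15:96117184-96117383, plus strand: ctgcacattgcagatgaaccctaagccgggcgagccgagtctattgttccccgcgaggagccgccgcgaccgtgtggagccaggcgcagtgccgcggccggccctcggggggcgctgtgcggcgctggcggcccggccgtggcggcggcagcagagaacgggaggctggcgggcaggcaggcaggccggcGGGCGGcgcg

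All 5 were rich in G and C, from 66.0% at Rbbp4 to 77.0% at Arid2. The stretches of Smarce1 (72.3%) and Smarca4 (71.5%) held none of the 8 motifs searched, and the wider 300 bp around the Smarce1 high point held a GC box (GGGCGG) and a Zfx core (AGGCCT). The Smarcc1 sequence held the NRF1 core (GCATGCG, overlapping matches on both strands), the ETS core (CCGGAAG) and a GC box (GGGCGG). The Rbbp4 sequence held an E-box (CACGTG) and a GC box, and the Arid2 sequence held a GC box. In the 200 bases before the 5'-most TSS, the NRF1 core was present at 4 of 35 members (Smarca4, Smarcc1, Smarca5 and Hdac1) and at 3.34% of all 22223 genes, the ETS core at 3 members and 7.69% of genes, and the E-box at 2 members and 5.58% of genes. The GC box was present there at 28 members and at 38.6% of all genes. Its letters are G and C alone, and the members' windows were richer in them, 55.3% beside 52.3% over the genes tested (medians). No share among genes of like GC content was taken. The motif matches describe letters and were not tested as sites.

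Among the members, SWI/SNF had a higher median fold than CHD and NuRD. Of its 16 genes, 6 had a fold of at least 2, beside 20.6% of all genes, and 2 passed the adjusted binomial test, beside 5.18%. The median fold was 1.79, which was 1.33 when scaled by all promoter windows. Its promoters held 516 Zfp322a and 273 IgG reads, a pooled fold of 1.77 (1.52 to 2.05). A putative binding site lay in a promoter window of 6 of the 16 genes, beside 12.1% of all genes. With a height of at least 11 reads 3 of the 16 had one, beside 7.68%, and 2 lay in the deposited regions, beside 3.24%. These shares for sites and regions are of all 22223 genes, which include genes with too few reads to be tested. All 16 members of this group were tested. A further 12 SWI/SNF subunits outside the list, tested in the same way, had a median of 1.23. The difference between the complexes was not tested.

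Smarcc1 (BAF155), a core scaffold that ES cells express in preference to its paralogue Smarcc2 (BAF170), held 35 Zfp322a reads and 10 IgG reads, or 8.43 and 2.58 RPM. The fold was 3.27 (1.58 to 7.40) with an adjusted p of 0.0165 in the exact binomial test. The call was lost with the window ending 100 bp after the TSS (fold 3.34, adjusted binomial p = 0.0891) and with scaling by promoter reads (fold 2.44, p = 0.240). Its reads were centred on the TSS, 32 bp downstream, but the IgG reads piled up at the same place, with heights of 15 and 8, and no site was called. Smarcc2 was the lowest of the group, with 15 Zfp322a and 20 IgG reads and a fold of 0.701 (0.334 to 1.44). The intervals of the paralogues do not overlap, and the difference between them was not tested.

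Among the ATPases, Smarca4 held 41 Zfp322a reads and 17 IgG reads over its windows, a fold of 2.25 (1.25 to 4.23, adjusted binomial p = 0.0625). It passed the adjusted test under 3 alternatives: the window of the 5'-most TSS alone, windows of 2000 bp on each side, and scaling by reads beyond 5 kb of every TSS. Scaled by all promoter windows its fold was 1.68. With windows ending 100 bp after the TSS it was not among the members with a fold of at least 2. The excess lay in the window of the 5'-most TSS, with 35 and 12 reads and a fold of 2.72 (1.38 to 5.76), while the internal window held 6 and 5 reads. It had a pair of sites, one at -222 bp from the nearest TSS with heights of 10 and 3 reads and one at 320 bp, in an intron, with heights of 15 and 2. Smarca2, the alternative ATPase, had 37 and 30 reads over 4 windows, a fold of 1.15 (0.693 to 1.93). The intervals of the ATPases overlapped.

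Of the other core subunits, Smarcb1 (BAF47) held 23 and 7 reads, a fold of 3.07 (1.28 to 8.47, adjusted binomial p = 0.0818), with a site of 9 reads against 2 at -19 bp. Among the Smarcd (BAF60) genes, Smarcd3, the form of muscle and heart, held 30 and 12 reads, a fold of 2.34 (1.16 to 5.01), with a site of 11 reads against 2 at -545 bp. Smarcd1 had 19 and 13 reads (1.37) and Smarcd2 37 and 27 (1.28). Actl6a, the actin-related subunit, had 23 and 12 reads, a fold of 1.79 (0.855 to 3.95). The adjusted binomial p was above 0.05 at each of these genes.

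Among the subunits that set the subtype of the complex the folds ran from 1.04 to 3.34. Arid2, which marks PBAF, held 25 and 7 reads, a fold of 3.34 (1.4 to 9.14, adjusted binomial p = 0.0629), with a site of 9 reads against 1 at -669 bp. With windows of 500 bp on each side, which leave that position out, Arid2 was not among the members with a fold of at least 2. Arid1a, which marks BAF, held the most Zfp322a reads of SWI/SNF, 55 against 29, a fold of 1.77 (1.11 to 2.88). In its 5'-most window the reads were 32 and 11, a fold of 2.72 (1.33 to 5.98), with a site of 10 reads against 3 at -106 bp. At that site the forward reads did not lie upstream of the reverse reads, with medians of -118 and -157 bp. Arid1b had 43 and 21 reads (1.91) and the PBAF subunit Pbrm1 42 and 22 (1.78). The bromodomain subunits Brd7 (20 and 18 reads, 1.04) and Brd9 (27 and 20, 1.26) lay below the median of all genes. The first window of Pbrm1 is shared with the divergent gene Gnl3, 49 bp away, and that of Brd9 with Trip13, 71 bp away, so those reads belong to neither gene alone. The same holds for Smarcd1 and Gm17349, 182 bp away.

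**Figure D2:**
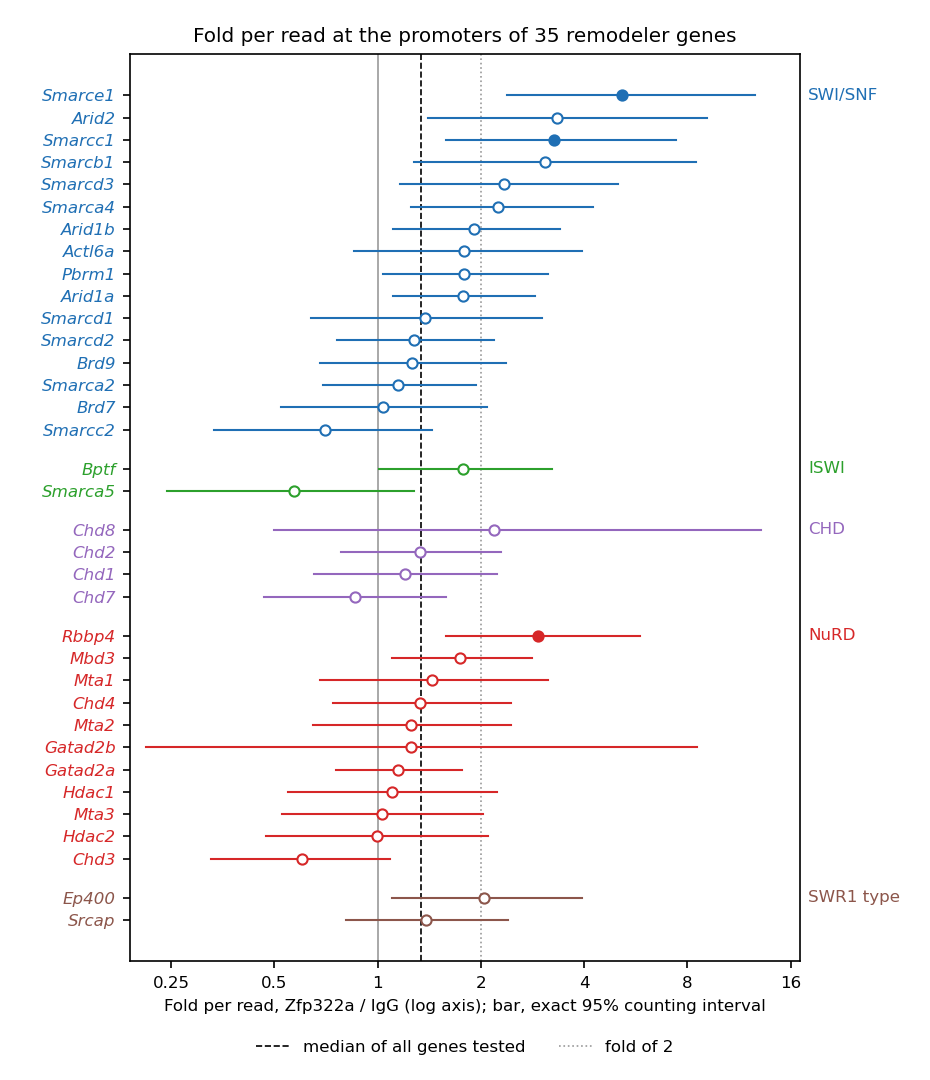
Fold per read, Zfp322a over IgG (x axis, log scale), for the 35 genes, with bars for the exact 95% counting interval. Filled points mark an adjusted p under 0.05 (Smarce1, Smarcc1 and Rbbp4), the dashed line the median of all genes tested (1.34) and the dotted line a fold of 2, and most intervals include the dashed line.

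NuRD lay lower than SWI/SNF. Its 10 tested genes had a median fold of 1.20, which was 0.893 when scaled by all promoter windows, and all 11 genes together held 309 and 225 reads, a pooled fold of 1.28 (1.08 to 1.53). Only Rbbp4, a WD-repeat histone chaperone that also serves PRC2 and CAF-1, reached a fold of 2, beside 20.6% of all genes tested. Rbbp4 was also the only NuRD gene past the adjusted test, beside 5.18% of all genes tested. It held 44 Zfp322a reads and 14 IgG reads, or 10.6 and 3.61 RPM, a fold of 2.94 (1.58 to 5.80), with an adjusted p of 0.00952 in the exact binomial test and 0.244 when scaled by promoter reads. The Zfp322a pileup was highest at -200 bp from the TSS, at 13 reads, and spread over both sides of it, and the highest IgG height in the window was 5. The start of the divergent gene Zbtb8os lies 325 bp away and its windows held 41 and 11 of largely the same reads. No site was called, because a site is set against the highest IgG height within its whole stretch, which was 5 reads. With a height of at least 11 reads or fragments of 200 bp a site was called. The promoter overlaps a region deposited by the authors, as do those of Smarca4 and Smarce1.

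The lowest gene of NuRD was Chd3, an ATPase, with 20 Zfp322a and 31 IgG reads over 4 windows, a fold of 0.603 (0.326 to 1.09, adjusted binomial p = 0.363). Chd4, the other ATPase and the form used in ES cells, had 30 and 21 reads, a fold of 1.33 (0.739 to 2.45). Mbd3, the methyl-CpG-binding family subunit that holds NuRD together, had the most Zfp322a reads of all members, 56 against 30, a fold of 1.74 (1.10 to 2.81, adjusted binomial p = 0.129). Mta1, Mta2 and Mta3, the scaffold subunits, had folds of 1.44, 1.25 and 1.03, and the deacetylases Hdac1 and Hdac2 of 1.10 and 0.993. For these 5 genes each library gave 13 to 24 reads.

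Gatad2a (p66-alpha) shows how a pileup and a window count can differ. Its windows held 53 and 43 reads, a fold of 1.15 (0.756 to 1.76). Yet at -336 bp from the TSS the extended Zfp322a reads reached a height of 20, the highest of the members, against 6 in the IgG library. This was the only site among the 11 NuRD genes, beside 12.1% of all genes with a site. The forward and reverse reads there had medians of -62.0 and 46.0 bp around the high point. From 200 bp downstream of the TSS to 800 bp the IgG pileup was the higher one, at up to 8 reads. Its paralogue Gatad2b held 4 and 3 reads, in a window with a CpG ratio (observed over that given by the base composition) of 0.180, the lowest of the members.

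**Figure D3:**
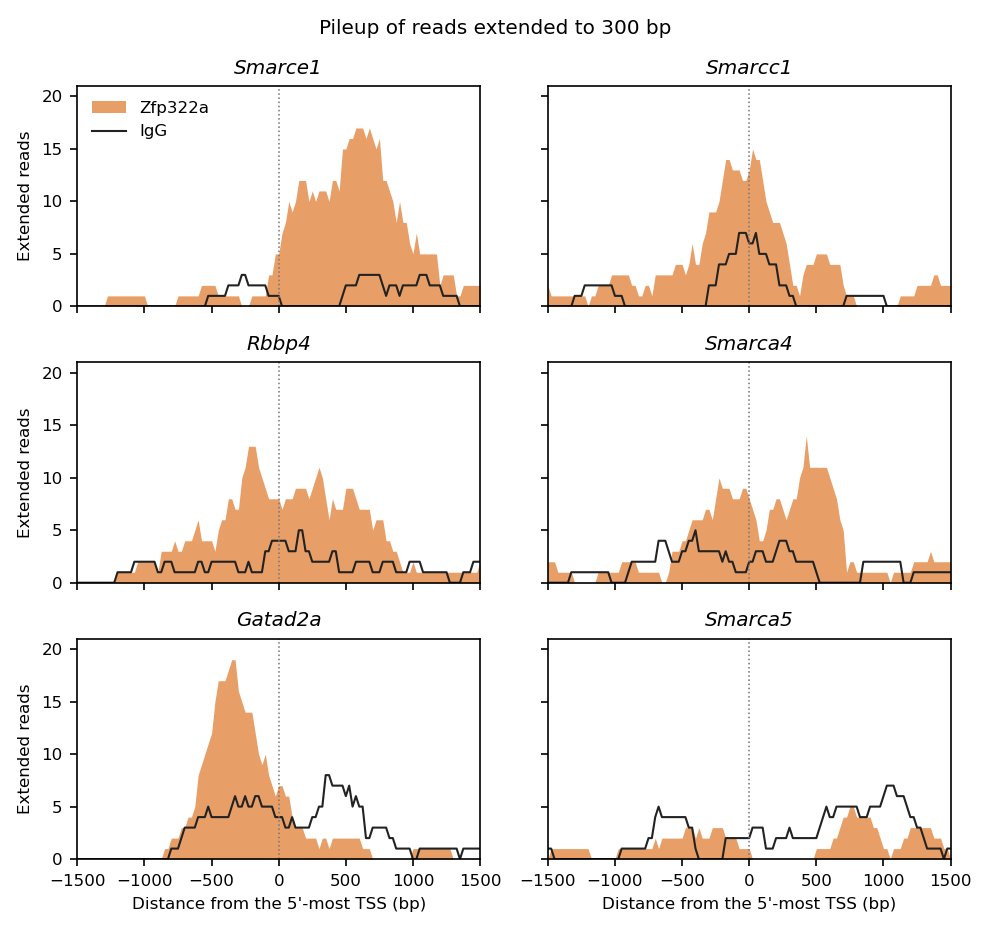
Height of the pileup of reads extended to 300 bp (y axis, reads, not scaled for depth) by distance from the 5'-most TSS in bp (x axis, downstream to the right), with the Zfp322a library filled and the IgG library as a line. The Zfp322a pileup peaks downstream of the TSS at Smarce1 and Smarca4, at the TSS at Smarcc1, and upstream at Rbbp4 and Gatad2a, while at Smarca5 the Zfp322a pileup stays at 5 reads or fewer.

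The remaining complexes, with 2, 4 and 2 genes tested, showed no gene past the adjusted test, beside 5.18% of all genes tested. With so few genes, this count does not set them apart from other genes. In ISWI, the ATPase Smarca5 (Snf2h) had the lowest fold of all members, with 11 and 18 reads and a fold of 0.571 (0.244 to 1.28, adjusted binomial p = 0.524). In its window 70.3% of the Zfp322a and 56.1% of the IgG reads were below the mapping quality of 25, against at most 12.5% elsewhere among the members. With all reads its fold was 0.843, above those of Chd3 (0.622) and Smarcc2 (0.700), so it was then not the lowest. With 500 bp on each side Chd7 (0.420) and Chd3 (0.467) lay below its 0.623. Bptf, the large subunit of NURF that binds H3K4me3, had 38 and 20 reads, a fold of 1.77 (1.01 to 3.22, adjusted binomial p = 0.222). One internal window of Bptf held 10 Zfp322a and 0 IgG reads, and the window of its 5'-most TSS held 22 and 14 (1.47).

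The CHD genes outside NuRD had a median fold of 1.27, which was 0.942 when scaled by all promoter windows. Chd8, a repressor of Wnt target genes, was the highest at 2.18, but this rested on 7 and 3 reads with an interval of 0.498 to 13.1. Chd7, which binds enhancers, was the lowest, with 23 and 25 reads and a fold of 0.859 (0.466 to 1.58). Chd1, needed for the open chromatin of ES cells, had 27 and 21 reads (1.20), with 25 and 13 at the 5'-most TSS and 2 and 8 at an internal one. Chd2 had 37 and 26 reads (1.33), with 15 and 6 at the 5'-most TSS.

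Of the SWR1-type ATPases, Ep400 held 35 and 16 reads, a fold of 2.04 (1.10 to 3.95, adjusted binomial p = 0.149), and Srcap 37 and 25, a fold of 1.38 (0.810 to 2.40). Both stayed above 1 when scaled by all promoter windows, at 1.52 and 1.03.

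**Figure D4:**
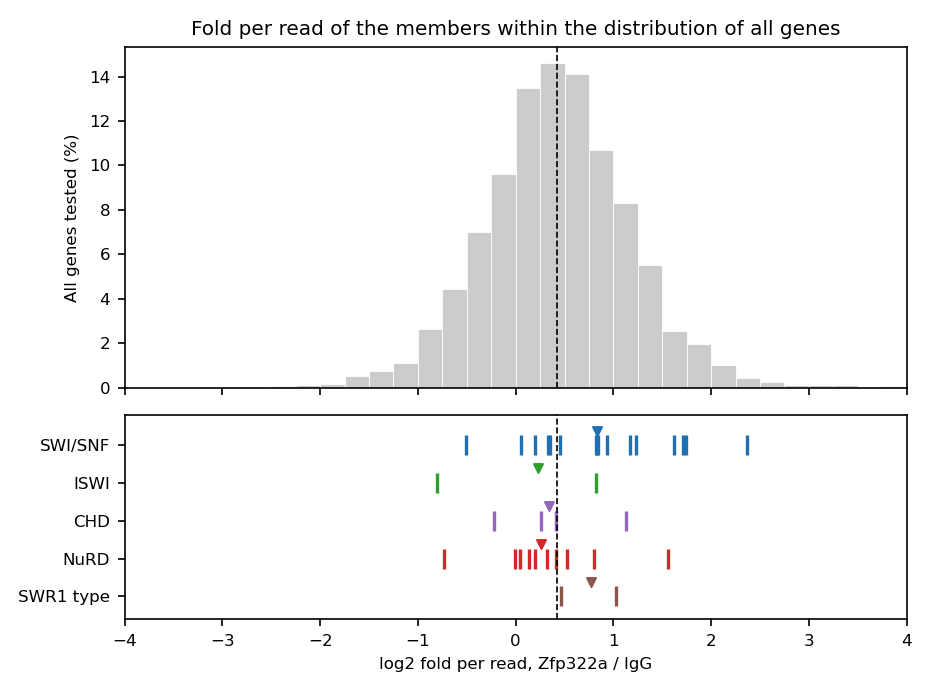
Upper panel, share of the 16547 genes tested (y axis, percent) by log2 fold per read (x axis, bins of 0.25, values beyond the axis in the end bins). Lower panel, 1 tick for each tested member by complex with a triangle at the group median, and the dashed line in both panels is the median of all genes. The SWI/SNF median (fold 1.79) lies to the right of the line and the NuRD median (1.20) to the left.

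The highest point of the Zfp322a pileup lay within 250 bp of a TSS at 14 of 35 members (40.0%). The share was 48.7% of the 20653 genes with a Zfp322a read in a window, and 54.3% of the 16546 tested among them. The members' median position was -88.0 bp. Putative sites were called with the height criteria of the study alone, 9 or more reads and 3 or more times the highest IgG height in the stretch, without its peak caller and its test of strand separation. By these 7 members had a site in a window, against a background of 12.1% of all 22223 genes: Smarca4, Smarcb1, Smarcd3, Smarce1, Arid1a, Arid2 and Gatad2a. Their highest points ran from -669 to 663 bp, and 2 of the 7 lay within 250 bp of a TSS. Of all 2681 genes with a site, 1805 had their highest point within 250 bp of a TSS. Members had more windows than other genes, several at 18 of 35 members and at 21.1% of all genes. Among the 17 members with 1 window 4 had a site, beside 11% of all genes with 1 window, and among the 18 with several windows 3 had one, beside 15.9% of such genes.

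Summed over the members by distance from the 5'-most TSS, the fold was 1.91 (1.34 to 2.74) in the first 200 bp downstream and 2.17 (1.51 to 3.16) from 400 to 600 bp downstream. Over all genes the fold was highest in the first 200 bp downstream, at 1.63 (1.61 to 1.65), and 1.42 from 400 to 600 bp. The IgG reads of the members also rose towards the TSS, from 0.700 RPM per kb per gene at 1000 to 1200 bp before it to 2.28 in the last 200 bp before the TSS.

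**Figure D5:**
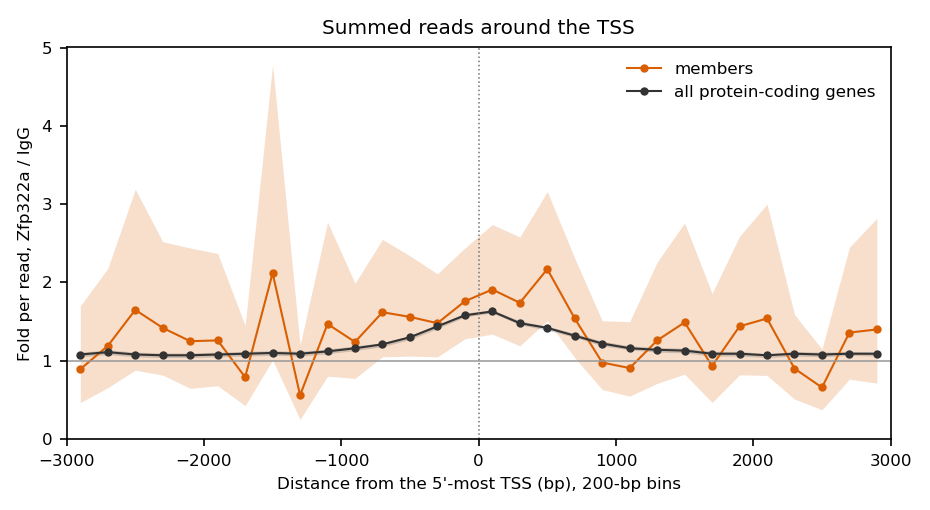
Fold per read of summed reads (y axis) in 200-bp bins by distance from the 5'-most TSS in bp (x axis), for the 35 members and all 22223 protein-coding genes, with shading for the exact 95% counting interval. The members lie above 1.5 in most bins within 800 bp of the TSS, and their interval includes the value of all genes there except from 400 to 600 bp downstream.

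In 300 bp around each member's highest point, the GC box was found at 16 of 35 members, beside 35.7% of all genes. The Zfx core (AGGCCT) was found at 7 members and 12.8% of genes, the NRF1 core at 3 and 3.33%, the ETS core at 3 and 9.24%, the E-box at 3 and 7.0%, the YY1 core (ATGGCGG, which can share letters with a GC box) at 1 and 6.07%, and the CCAAT box (CCAAT) at 4 and 31.5%. The TATA box (TATAAA) was found at 0 members and 8.91% of genes. Of the motifs the study drew from its peaks, the first was found at 5 members and 19.7% of genes, and the third at 0 members and 1.28% of genes.

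A list of 60 other remodeler genes gave values near those of the members. Of these 58 were annotated and 57 tested, 13 (22.8%) had a fold of at least 2, beside 20.6% of all genes, and the median was 1.49. For 6 the adjusted binomial p was under 0.05, all with more Zfp322a reads, beside 5.18% of all genes. Atrx, a Snf2-family ATPase of heterochromatin, held 33 and 6 reads (5.14, adjusted binomial p = 0.00298). The rest of the Atrx gene also held more Zfp322a reads, 155 against 83, a fold of 1.74. At the others of these 6 genes that fold ran from 0.617 at Smarcad1 to 1.34 at Sall4. Shprh, a Snf2-family ubiquitin ligase, held 33 and 8 (3.85), and Smarcad1, an ATPase that keeps silent chromatin through replication, held 35 and 11 (2.97). Rsf1, a partner of Smarca5, held 40 and 15 (2.49), and Trrap, a scaffold of the Tip60 and Ep400 complex, held 52 and 23 (2.11). Sall4, an ES cell transcription factor that binds NuRD, held 197 and 105 reads, a fold of 1.75, with no site. The 12 tested genes of the further SWI/SNF subunits had a median of 1.23 and 2 with a fold of at least 2, below the values of the 16 SWI/SNF members.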

How the data were processed

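Each antibody had 1 ChIP-seq library. The submitters' processing notes name CASAVA 1.4, BWA, Partek 6.6 and mm9. The authors deposited mapped reads (99.7% and 99.6% of 36 bp) with a mapping quality score each, and the reads inside numbered peak regions. From 5187475 Zfp322a and 4843481 IgG reads, those with a score of at least 25 were counted (80.0% and 80.1%), and no reads of a library shared position and strand. TSSs came from GENCODE vM1, with gene models of 1 symbol within 500 kb merged. Folds, exact binomial tests across all genes, sites (reads extended to 300 bp) and motifs came from scipy 1.17.1, pandas 2.3.3 and numpy 2.4.6 under Python 3.11.15, sequences were read with samtools 1.23.1 and pysam 0.24.0, and figures were drawn with matplotlib 3.10.9. The test was checked on simulated counts drawn with counting error alone. That check could not show how the test behaves with spread between libraries. The members, the lists and the tests were chosen with earlier results of these data known. Named in full were members with an adjusted p under 0.05, the highest and lowest of each complex, Smarce1, and other remodeler genes with an adjusted p under 0.05, at most 8. Alternatives changed the reads, windows, scaling, minimum, fold and site criteria.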

Additional observations from a re-analysis of the deposited data

How the results depend on the processing

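Of 54 comparisons of list values with an alternative, 41 stayed near the reported value. Near meant within 1.5 times for a count and inside the 95% order-statistic interval for a median (1.20 to 1.79 for the fold). This rule did not weigh the share of all genes, which also moved. With 500 bp on each side 8 of 32 members tested had a fold of at least 2, beside 28.7% of all genes. With windows ending 100 bp after the TSS 8 of 33 did, beside 27.2%. In these settings the members' share was the smaller one, and under the other alternatives the larger one. With a minimum of 20 reads the members' median fold lay below that of all genes. Scaling by reads in all promoter windows gave 5 members and 4 other remodelers with a fold of at least 2, 1 member past the adjusted test and a member median of 1.02, and the share of all genes with a fold of at least 2 was then 8.29% and past the adjusted test 0.586%. Scaling by reads beyond 5 kb of every TSS gave 5 members past the adjusted test, Smarca4 and Arid2 in addition, beside 6.42% of all genes with more Zfp322a reads. Windows of 2000 bp on each side also gave 5, Smarca4 and Arid1b in addition, beside 4.34%, and 7 other remodelers with a fold of at least 2, beside 13.2% of all genes. Windows ending 100 bp after the TSS gave 1 member past the adjusted test, Rbbp4, beside 2.58% of all genes. A fold of at least 1.5 gave 15 members and 27 others, beside 40.5% of all genes, and a fold of at least 3 gave 4 members and 3 others, beside 5.85%. With the deposited regions, 3 members had a site in place of 7, beside 3.24% of all genes. At a height of at least 11 reads, 5 did, Rbbp4 among them, beside 7.68%. With 500 bp on each side Smarce1 had a fold of 3.92 and an adjusted binomial p of 0.0513. A mapping quality of 37, chosen after seeing the data, gave 9 members with a fold of at least 2 and 3 past the adjusted test, beside 20.5% and 4.67% of all genes. Of the 11 members named by the rule in the methods, each kept its direction under every alternative run in which it was tested. No paired analysis was possible because each antibody had 1 library, and for the same reason no library could be left out. At this depth a member gene rested on 7 to 96 reads of both libraries over all its windows.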
